A study of Homo sapiens with 48 samples.

Results

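S100 and annexin genes encode calcium-binding proteins of the cytoplasm and of membranes. They were followed in parental PSN1 cells, in PSN1 cells with acquired resistance to Talazoparib, and in such cells after drug withdrawal. Members were taken by symbol, as S100 followed by a letter or ANXA followed by a number, and S100PBP was left out. This gave 35 of the 20241 genes in the table, of which 21 were S100 genes and 13 were annexins. The remaining gene, ANXA2R, encodes a receptor and not an annexin, and is given apart. PSN1 is a human pancreatic ductal adenocarcinoma line, and Talazoparib is an inhibitor of the DNA repair enzyme PARP. RNAseq was available for parental cells (labelled WT, no treatment, day 0), for TalaR-M cells (kept in 50 nM Talazoparib, 4 months) and for TalaR-DF cells (labelled with no treatment and day 0), with 3 replicates per group. The study describes TalaR cells as selected under rising drug concentrations and TalaR-DF cells as TalaR cells grown without drug for 4 weeks. It reports that PSN1 cells had by then nearly regained parental sensitivity to Talazoparib, so TalaR-DF does not stand here for a resistant state. All 9 libraries therefore come from 1 cell line, and nothing in the labels says whether replicates were separate cultures, so that p-values measure the spread between these libraries only. The comparisons share libraries, since parental cells serve as control for both TalaR populations. Each value was a log2 CPM, the log2 of the reads of a gene scaled to library size, with everything at or below 1 CPM set to 0. Reads on genes above that floor numbered 12710730 to 14168340 in parental libraries, 12213605 to 13936867 in TalaR-DF libraries, and 14973847, 8387755 and 12597635 in TalaR-M replicates 1, 2 and 3.

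S100 proteins are small dimers with EF-hand calcium sites, which on binding calcium expose a cleft that grips other proteins. Annexins dock onto phospholipid membranes when calcium rises and take part in membrane repair, vesicle traffic and secretion. The families meet in defined pairs: S100A10, which holds its active shape without calcium, joins ANXA2, and S100A11 joins ANXA1. Most human S100 genes lie side by side in the epidermal differentiation region of chromosome 1, and several of them are best known from carcinomas, squamous epithelium or myeloid cells.

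TalaR-M replicate 2 stood apart from the other 8 libraries, and its difference fell on S100 transcripts. Its values were above those of replicates 1 and 3 for short transcripts and below them for long ones. The median difference was 1.43 log2 CPM over the shortest transcripts (156 to 1367 bases) of 10445 genes and -1.45 over the longest (7774 bases and more). All 8 S100 genes with a mean above 2 log2 CPM, whose transcripts are 434 to 1172 bases long, were higher in replicate 2, with a median difference of 2.14 and a range from 1.15 for S100A11 to 3.00 for S100A13. The 724 genes in the same length range had a median difference of 1.54, while 9 annexins with transcripts of 1401 to 6734 bases had a median of -0.58. The summed expression of all S100 genes was 1386 CPM and 1155 CPM in TalaR-M replicates 1 and 3, and 5313 CPM in replicate 2. Counts of called members and medians are therefore given with all 9 libraries and again without TalaR-M replicate 2, and the plot of fold changes shows each tested member both ways. The part of RNA quality or library preparation in this library was not tested.

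**Figure D1:**
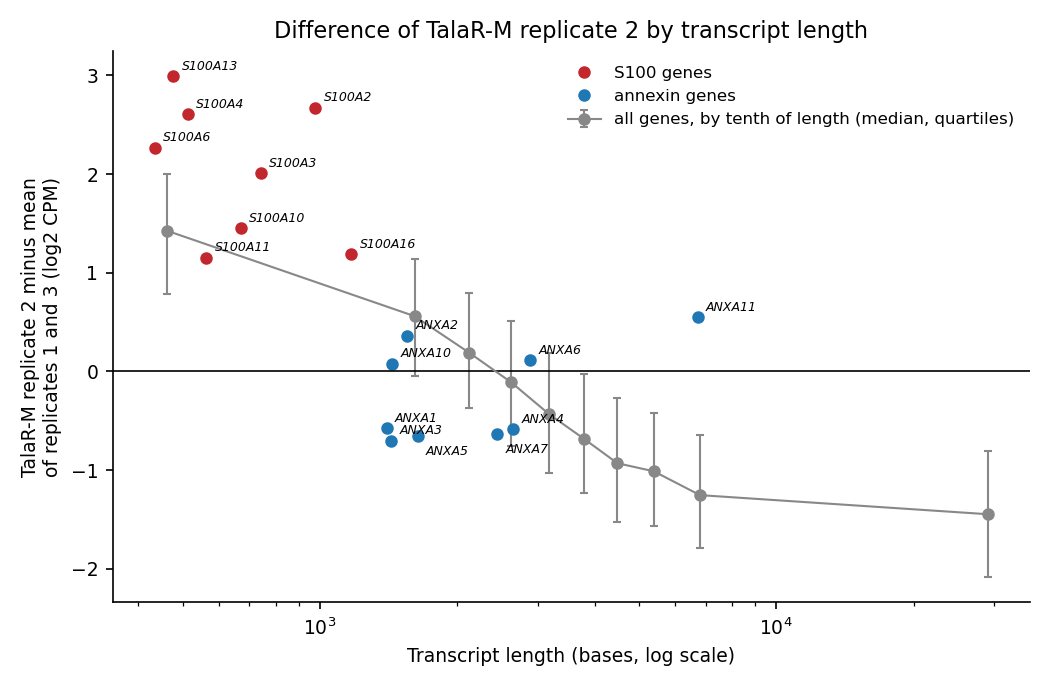
Difference between TalaR-M replicate 2 and the average of its fellow replicates 1 and 3 (log2 CPM, vertical axis) against transcript length in bases (horizontal axis, log scale). Grey points are medians of all genes in 10 length classes with bars from the first to the third quartile; the 8 S100 genes (red) lie at 1.15 to 3.00 and the 9 annexins (blue) between -0.70 and 0.55.

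Of the 35 genes, 12 were at 0 in all 9 libraries, which means no more than 1 CPM in each. They were the carcinoma-associated S100P and S100A14, the myeloid S100A8 and S100A12, the squamous psoriasin genes S100A7 and S100A7A with S100A7L2, the glial and melanocytic S100B, and S100A1, S100G, S100Z and ANXA13. S100A5 was above 0 in 2 libraries only, at 0.18 log2 CPM in parental replicate 3 and 0.85 in TalaR-M replicate 2. The other 22 genes exceeded 1 CPM in at least 3 libraries and were tested: 9 S100 genes, 12 annexins and ANXA2R. The log2 values were compared in a limma model of the 3 groups, and a gene was called at an adjusted p under 0.05 over 12471 genes with a change of at least 2-fold.

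Per kilobase of transcript, S100A6 had the highest mean level of the members in parental cells, at 9.67 log2 CPM per kb, followed by ANXA2 at 9.31. S100A11 at 9.0 and S100A4 at 8.99 came next and did not differ beyond their spread, and ANXA1 stood at 8.72. In TalaR-M replicates 1 and 3, ANXA3 stood at 4.82 log2 CPM per kb, between S100A13 at 4.71 and ANXA7 at 5.22, whereas in parental cells it was at or next to the floor.

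**Figure D2:**
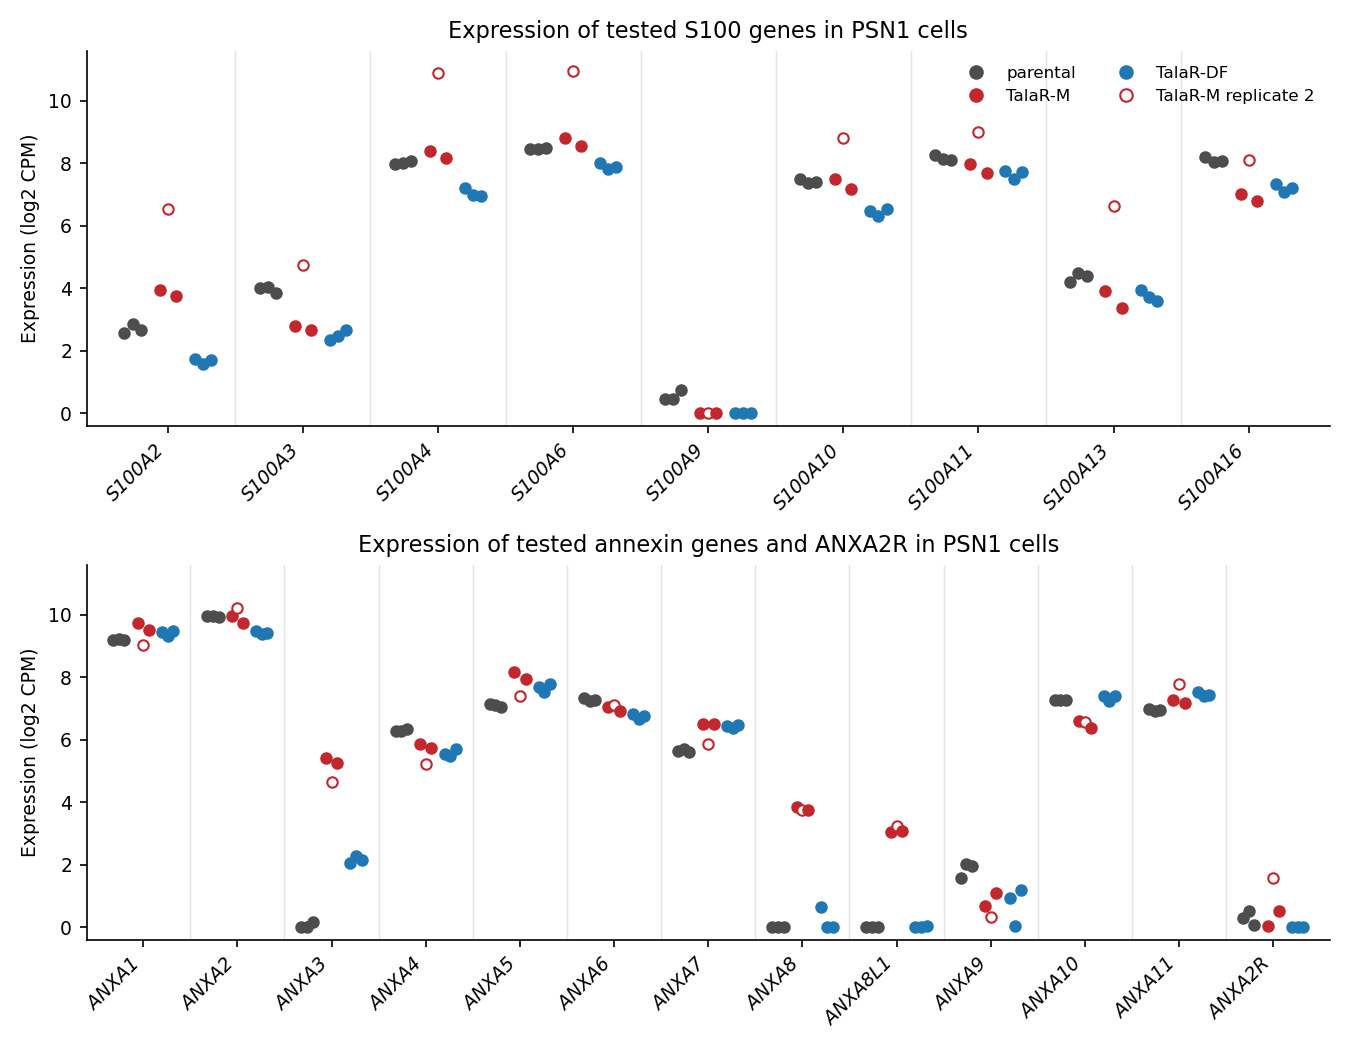
Expression (log2 CPM, vertical axis) of the 9 tested S100 genes (top) and of the 12 tested annexins and ANXA2R (bottom) in each library, with parental cells in grey, TalaR-M cells in red and TalaR-DF cells in blue. The open red circle is TalaR-M replicate 2, which is the highest TalaR-M value of every S100 gene shown except S100A9, and the 3 TalaR-M libraries lie above the other 6 for ANXA3, ANXA8 and ANXA8L1.

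All 9 tested S100 genes are among the 17 S100 genes of the chromosome 1 cluster, which spans chr1:151982915-153632039 of GRCh38. S100A9 passed the filter on low values through parental cells only, so that its lower TalaR values were fixed by the filter and it is left out of the next counts. In TalaR-DF cells the other 8 were all lower than in parental cells, with no overlap between the libraries of the groups. Among all 12471 genes tested, 33.2% were lower without overlap and 35.3% were higher. The median log2 fold change of these 8 S100 genes was -0.93, against 0.01 for all genes tested and 0.05 for the 724 genes of S100-like length. Summed S100 expression was 1424, 1373 and 1388 CPM in the parental libraries and 899, 774 and 837 CPM in the TalaR-DF libraries, again without overlap.

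With all 9 libraries in the fit and values as deposited, none of the 9 S100 genes was called between TalaR-DF and parental cells, and none of the 8 genes other than S100A9 had an adjusted p under 0.05. Of all genes, 7.49% were called lower and 2.25% higher. The standard error of S100A2 in this fit was 0.64, and it was 0.12 without TalaR-M replicate 2. Without that replicate these 8 S100 genes passed an adjusted p under 0.05 from limma in the negative direction, where 30.4% of all genes did so and 32.5% passed in the positive direction. S100A2 and S100A3 then fell at least 2-fold, where 8.63% of all genes were called lower and 2.73% higher. With all 9 libraries and a trend with transcript length and GC content removed from each, S100A2, S100A3 and S100A10 were called lower, at -1.02, -1.39 and -1.06 (adjusted p = 0.0191, 0.000472 and 0.000639 from limma). S100A2 and S100A3 were also called with array weights, which down-weight libraries far from their group, and in a fit of parental and TalaR-DF libraries alone. With the trend removed 10.4% of all genes were called in either direction, with array weights 11.3%, and with those groups alone 11.4%. The fold changes between parental and TalaR-DF cells are the same with and without TalaR-M replicate 2, since neither group holds that library. In TalaR-M against parental cells the median of the 8 S100 genes was 0.34 with all libraries and -0.21 without TalaR-M replicate 2, so that library turned its sign.

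**Figure D3:**
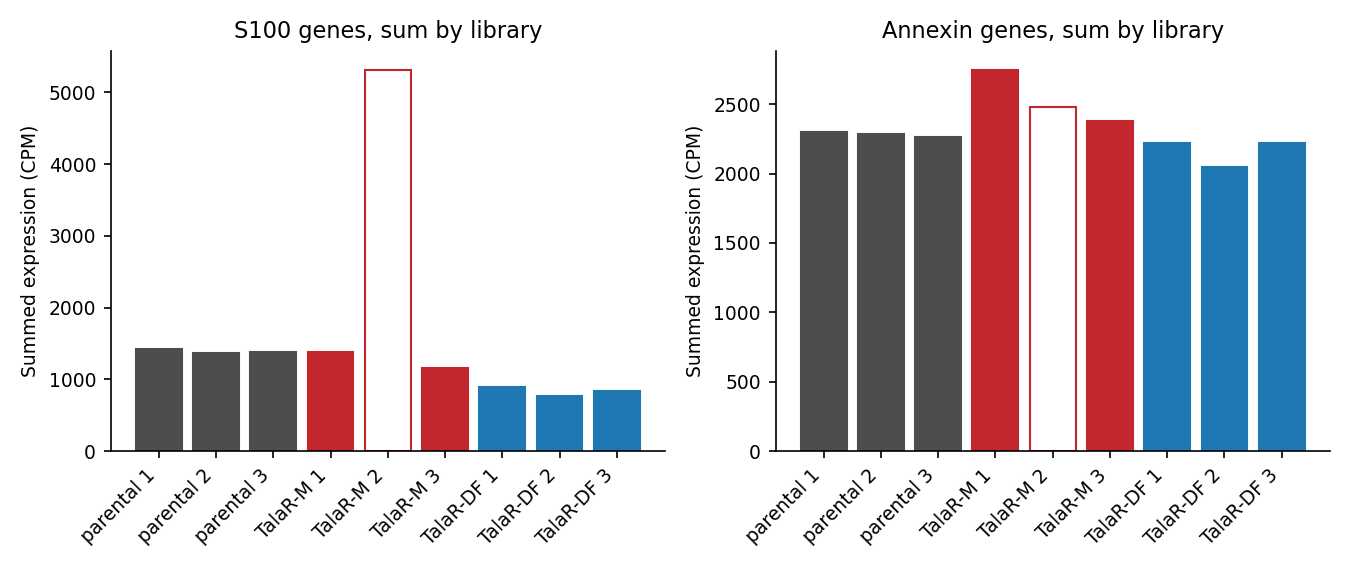
Expression summed over all S100 genes (left) and all annexins (right) in each library, in CPM, with an open bar for TalaR-M replicate 2. The S100 sums of the TalaR-DF libraries (774 to 899 CPM) lie below those of every parental library (1373 to 1424 CPM), while the annexin sums range from 2050 to 2747 CPM over the 9 libraries.

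S100A2 (chr1:153561108-153567890), which is expressed in basal squamous epithelium and binds p53, was highest in TalaR-M cells and lowest in TalaR-DF cells. Its expression was 2.57, 2.84 and 2.67 log2 CPM in parental cells, 3.93, 6.52 and 3.77 in TalaR-M cells and 1.75, 1.58 and 1.69 in TalaR-DF cells. The 3 groups did not overlap, with and without TalaR-M replicate 2. The share of all genes whose 3 groups do not overlap was not computed. Between TalaR-DF and TalaR-M cells S100A2 rose by 3.07 on the log2 scale (standard error 0.64, adjusted p = 0.0184 from limma), and the call was lost when any of the 3 TalaR-DF replicates was left out (adjusted p up to 0.0722). When TalaR-M replicate 2 was left out this value was 2.17 (adjusted p = 1.74e-07, range over the alternatives 8.85e-08 to 0.112). Against parental cells the TalaR-M value was 2.05 (standard error 0.64, adjusted p = 0.0515), and 1.16 without replicate 2 (adjusted p = 1.82e-05, range 9.25e-06 to 0.147). With all libraries and the trend removed it was called at 1.46 (adjusted p = 0.00285). The TalaR-DF value against parental cells was -1.02 (adjusted p = 0.357, and 1.83e-05 without TalaR-M replicate 2, range 3.07e-06 to 0.709), at 48, 40 and 40 reads per TalaR-DF library.

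S100A3 (chr1:153547329-153549258), a cysteine-rich member known from the hair cuticle, was at 4.01, 4.04 and 3.86 log2 CPM in parental cells, 2.80, 4.74 and 2.66 in TalaR-M cells and 2.35, 2.49 and 2.68 in TalaR-DF cells. Every TalaR library but TalaR-M replicate 2 lay below the parental libraries. With all libraries the log2 fold change from parental cells was -0.57 in TalaR-M cells (standard error 0.49, adjusted p = 0.412) and -1.47 in TalaR-DF cells (standard error 0.49, adjusted p = 0.0781). Without TalaR-M replicate 2, S100A3 fell in both, by 1.24 (adjusted p = 8.7e-06, range over the alternatives 2.18e-06 to 0.764) and by 1.47 (adjusted p = 7.88e-07, range 3.04e-08 to 0.21). S100A3 was also called in both with all 9 libraries and the trend with length and GC content removed, at -1.38 in TalaR-M and -1.39 in TalaR-DF cells (adjusted p = 0.000398 and 0.000472 from limma). The annotated spans of S100A3 and S100A4 overlap on the same strand, while their transcripts share no 150-base window (0 of 593 for S100A3 and 0 of 364 for S100A4).

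S100A16 (chr1:153606886-153613145), a broadly expressed member, was at 8.20, 8.03 and 8.07 log2 CPM in parental cells, 7.01, 8.10 and 6.81 in TalaR-M cells and 7.34, 7.09 and 7.20 in TalaR-DF cells. TalaR-M replicate 2 lay among the parental values, and the other 2 TalaR-M libraries lay below every TalaR-DF library. Without replicate 2, S100A16 fell by 1.19 in TalaR-M cells (adjusted p = 3.63e-07, range over the alternatives 2.53e-08 to 0.238), and with it the log2 fold change was -0.79 (adjusted p = 0.0977). With it and the trend removed, S100A16 was called at -1.34 (adjusted p = 0.000148). The log2 fold change of TalaR-M against TalaR-DF cells was 0.10 with all libraries and -0.30 without that library.

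S100A4 (chr1:153543613-153550136), which binds non-muscle myosin and is associated with motility and metastasis, had the same order of groups as S100A2. It stood at 7.98, 8.02 and 8.08 log2 CPM in parental cells, 8.41, 10.89 and 8.16 in TalaR-M cells and 7.20, 6.99 and 6.96 in TalaR-DF cells. TalaR-M libraries were highest and TalaR-DF libraries lowest, without overlap. The log2 fold change of TalaR-M against TalaR-DF was 2.10 (standard error 0.62, adjusted p = 0.0653), and without TalaR-M replicate 2 S100A4 was called at 1.24 (adjusted p = 5.98e-07, range over the alternatives 2.59e-08 to 0.224). With all libraries and the trend removed it was called at 1.21 (adjusted p = 3.7e-05). Against parental cells the TalaR-M value was 1.13 with all libraries (adjusted p = 0.217) and 0.26 without replicate 2.

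S100A6, or calcyclin (chr1:153534599-153536244), which binds the ubiquitin ligase adaptor CACYBP, also had this order, at 8.45, 8.46 and 8.50 in parental cells, 8.79, 10.94 and 8.55 in TalaR-M cells and 8.02, 7.83 and 7.89 in TalaR-DF cells. It was not called in any comparison, with or without TalaR-M replicate 2. In TalaR-M against TalaR-DF cells its log2 fold change was 1.52 (adjusted p = 0.111 from limma), and 0.76 without that library (adjusted p = 1.55e-05). In TalaR-DF against parental cells it was -0.55 (adjusted p = 0.594, and 3.86e-05 without that library). The TalaR-M value of S100A6 against parental cells was 0.96 with all libraries (adjusted p = 0.228 from limma) and 0.21 without that library. It was -0.046 with all libraries and the trend removed. S100A10 (chr1:151982915-151993859), the partner of ANXA2, was at 7.49, 7.38 and 7.41 log2 CPM in parental cells, 7.50, 8.80 and 7.18 in TalaR-M cells and 6.47, 6.31 and 6.55 in TalaR-DF cells. All TalaR-DF libraries lay below the other 6. Between TalaR-DF and TalaR-M cells S100A10 rose by 1.39 (standard error 0.36, adjusted p = 0.0439 from limma). This call was lost in 7 of the 9 fits that leave out 1 library, those without any parental or TalaR-DF replicate or TalaR-M replicate 2, where the adjusted p reached 0.145. When TalaR-M replicate 2 was left out the value was 0.90 (adjusted p = 1.55e-05, range over the alternatives 1.53e-06 to 0.178), and with all libraries and the trend removed it was 0.75, both short of 2-fold.

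S100A11 (chr1:152032506-152047907), the partner of ANXA1, ranged from 8.09 to 8.27 log2 CPM in parental cells and from 7.51 to 7.76 in TalaR-DF cells. S100A13 (chr1:153618787-153631360), which assists the export of growth factors without a signal peptide, ranged from 4.19 to 4.49 and from 3.60 to 3.96 in the same groups. TalaR-M replicate 2 set the direction of both genes against parental cells, since the log2 fold changes were 0.05 and 0.28 with all libraries and -0.34 and -0.72 without it (adjusted p = 0.0132 and 0.00261 from limma in the latter). Both were also negative with all libraries once a trend with transcript length and GC content was removed, at -0.80 and -0.66. Of the 150-base windows of the S100A13 transcript, 23.2% also occur in an overlapping annotated gene, so the division of its reads is uncertain.

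S100A9 (chr1:153357854-153361023), which pairs with S100A8 as the calprotectin of myeloid cells, was barely above the floor. It was at 0.45, 0.45 and 0.74 log2 CPM in parental cells, from 19, 18 and 21 reads, and at 0 in all 6 TalaR libraries. The myeloid marker CD14 was also highest in parental cells, at 3.48 to 3.88 log2 CPM, and ranged from 1.23 to 2.83 in TalaR-M cells and from 0.24 to 0.61 in TalaR-DF cells. CSF1R was at 1.68, 1.87 and 1.70 log2 CPM in parental cells and at 0 in all 6 TalaR libraries. PTPRC went the other way, at 0 in the parental libraries, 1.79, 0 and 0.83 in TalaR-M libraries and 0.05, 0 and 0 in TalaR-DF libraries. CD14 was the most abundant of 8 myeloid markers except in TalaR-M replicate 1, where PTPRC was at 1.79 log2 CPM and CD14 at 1.24. The 8 markers summed to 14.8 to 18.0 CPM in parental libraries, 4.14 to 7.11 in TalaR-M libraries and 1.18 to 2.55 in TalaR-DF libraries. LYZ, ITGAM, FCER1G, TYROBP and LST1 were at 0 in all 9 libraries, and the part of myeloid RNA in the S100A9 values was not tested. In such bulk RNA, fewer cells of a type and less RNA per cell cannot be told apart.

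Among the annexins, 4 genes were called. Between parental and TalaR-M cells ANXA3, ANXA8 and ANXA8L1 rose and ANXA9 fell, 4 of the 22 tested members, where 5.53% of all genes were called higher and 7.72% lower. ANXA8 and ANXA8L1 passed the filter on low values through TalaR-M cells only, so that their higher values there were fixed by the filter. Without TalaR-M replicate 2, ANXA3, ANXA8, ANXA8L1 and S100A2 were called higher and S100A3 and S100A16 lower, where 6.78% of all genes were called higher and 7.07% lower. At any size of change, 10 members were then higher and 9 lower at an adjusted p under 0.05, with ANXA8 and ANXA8L1 among the first and S100A9 among the second, where 30.2% of all genes were higher and 30% were lower. The median log2 fold change of the 10 annexins other than ANXA8 and ANXA8L1 was 0.12 with that library and 0.09 without it, against -0.09 and 0.01 for all genes.

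ANXA3 (chr4:78551747-78610451), known as an inhibitor of phospholipase A2, was at 0, 0 and 0.18 log2 CPM in parental cells, 5.43, 4.64 and 5.24 in TalaR-M cells and 2.05, 2.29 and 2.17 in TalaR-DF cells. The 3 groups did not overlap, and TalaR-DF cells lay between parental and TalaR-M cells. These levels rest on 678, 187 and 531 reads in TalaR-M and 59, 66 and 56 reads in TalaR-DF libraries, against 14 reads in the 1 parental library above the floor. ANXA3 rose by 5.04 in TalaR-M cells (standard error 0.21, adjusted p = 1.55e-06 from limma) and by 2.11 in TalaR-DF cells (standard error 0.21, adjusted p = 0.000269), both measured from the floor in 2 of the 3 parental libraries. ANXA3 was 7.66-fold higher in TalaR-M than in TalaR-DF cells (log2 fold change 2.94, adjusted p = 0.000107). With a pseudocount of 0.1 CPM the adjusted p from limma of this difference was 0.0771, which ended the call (range over the alternatives 1.4e-09 to 0.0771). None of the 9 libraries, left out in turn, ended any of these 3 calls. The call of TalaR-DF against parental cells was lost with a pseudocount of 8 CPM, and over the alternatives its log2 fold change went down to 0.58. Between parental and TalaR-DF cells ANXA3 was the only member called higher, with and without TalaR-M replicate 2. That is 1 of 22 tested members, beside 2.25% and 2.73% of all genes called higher.

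ANXA8 (chr10:47460162-47484158), first described as a vascular anticoagulant, and its near-identical copy ANXA8L1 (chr10:46375627-46391784) were detected mainly in TalaR-M cells. ANXA8 was at 0 in the 3 parental libraries, at 3.87, 3.75 and 3.75 log2 CPM in TalaR-M cells and at 0.67, 0 and 0 in TalaR-DF cells. ANXA8L1 was at 0 in the 3 parental libraries, at 3.04, 3.25 and 3.09 in TalaR-M cells and at 0, 0 and 0.03 in TalaR-DF cells. All TalaR-M libraries lay above the other 6 for both genes, replicate 2 with them. TalaR-M cells were at least 13.8-fold higher for ANXA8 and at least 8.74-fold higher for ANXA8L1 than parental cells, counted from the floor of 1 CPM per library (adjusted p = 3.57e-06 and 5.52e-07 from limma). Against TalaR-DF cells the log2 fold changes were 3.57 and 3.12 (adjusted p = 2.76e-05 and 2.11e-06), and none of the 9 libraries, left out in turn, ended any of these 4 calls. As the filter kept both genes only for their TalaR-M values, these tests had to favour TalaR-M cells. The transcripts of the pair are 99.5% identical over their aligned bases, with 9 mismatches, and 57.2% of the 150-base windows of ANXA8 and 60.5% of those of ANXA8L1 occur elsewhere among annotated transcripts. How the reads were divided between the copies is therefore uncertain.

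ANXA9 (chr1:150982249-150995634), an annexin whose core lacks the usual calcium sites, was at 1.59, 2.03 and 1.95 log2 CPM in parental cells, 0.68, 0.34 and 1.10 in TalaR-M cells and 0.95, 0.03 and 1.19 in TalaR-DF cells. The parental libraries lay above the other 6, which overlapped each other. ANXA9 fell by 1.15 in TalaR-M cells (standard error 0.32, adjusted p = 0.0351 from limma) and by 1.13 in TalaR-DF cells (standard error 0.32, adjusted p = 0.0434). Each call was lost in 6 of the 9 fits that leave out 1 library: both without any parental replicate, TalaR-M replicate 1 or TalaR-DF replicate 1, the first also without TalaR-M replicate 2 and the second also without TalaR-DF replicate 2. With the trend removed the TalaR-DF call was lost as well (adjusted p = 0.115). The adjusted p over the fits that leave out 1 library reached 0.117 and 0.146, and parental counts were only 43, 56 and 50 reads.

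The abundant annexins differed by less than 2-fold, in both directions. ANXA2, the partner of S100A10, was at 9.95, 9.95 and 9.93 log2 CPM in parental cells, 9.96, 10.21 and 9.74 in TalaR-M cells and 9.47, 9.38 and 9.43 in TalaR-DF cells. All TalaR-DF libraries lay below the other 6, as for S100A10, and the log2 fold change from parental cells was -0.52 (standard error 0.15, adjusted p = 0.0483, and 6.41e-05 without TalaR-M replicate 2). ANXA1 (chr9:73151865-73170393), the partner of S100A11 and a mediator of glucocorticoid action, ranged from 9.19 to 9.22 in parental cells, 9.04 to 9.74 in TalaR-M libraries and 9.33 to 9.48 in TalaR-DF cells. S100A11 and ANXA1 lay on opposite sides of parental cells in TalaR-DF libraries, at log2 fold changes of -0.50 and 0.21 (adjusted p = 0.335 and 0.538, and 0.000474 and 0.0244 without TalaR-M replicate 2), while S100A10 and ANXA2 lay on the same side. In TalaR-M cells ANXA1 was at 0.22 with all libraries (adjusted p = 0.393) and 0.41 without replicate 2 (adjusted p = 0.000992). Of the 150-base windows of ANXA2, 8.19% occur in its pseudogene ANXA2P2.

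ANXA5, the phosphatidylserine-binding protein used to stain dying cells, had a parental range of 7.05 to 7.15 log2 CPM and stood at 7.41 to 8.18 in TalaR-M and 7.54 to 7.79 in TalaR-DF cells. ANXA7, linked to secretion, was at 5.61 to 5.70 in parental cells, 5.87 to 6.52 in TalaR-M libraries and 6.36 to 6.47 in TalaR-DF cells. Both were above every parental library in all 6 TalaR libraries. Their log2 fold changes were 0.75 and 0.65 in TalaR-M cells (adjusted p = 0.0276 and 0.0356) and 0.57 and 0.78 in TalaR-DF cells (adjusted p = 0.0876 and 0.0196). Without TalaR-M replicate 2 the TalaR-M values were 0.96 and 0.86 (adjusted p = 1.84e-06 and 3.47e-07), and the TalaR-DF values had adjusted p of 5.19e-05 and 3.14e-07. ANXA11, which tethers RNA granules to lysosomes, was also higher without overlap in both populations. Its log2 fold change was 0.45 in TalaR-M cells (adjusted p = 0.0886) and 0.27 without replicate 2 (adjusted p = 0.00383). In TalaR-DF cells ANXA11 was at 0.50, with adjusted p of 0.0805 with all libraries and 1.67e-05 without that replicate. ANXA4, an annexin of epithelial membranes, and ANXA6, the member with a duplicated core, were below every parental library in all 6 TalaR libraries. Their log2 fold changes were -0.70 and -0.27 in TalaR-M cells (adjusted p = 0.0261 and 0.127) and -0.72 and -0.54 in TalaR-DF cells (adjusted p = 0.0266 and 0.0124). Without TalaR-M replicate 2 the TalaR-M values were -0.50 and -0.31 (adjusted p = 0.000198 and 0.00242), and those of TalaR-DF cells had adjusted p of 3.98e-06 and 1.34e-05. In TalaR-DF against parental cells, 5 of the 12 tested annexins were higher without overlap and 4 were lower. These counts lie near the shares over all genes, 35.3% higher and 33.2% lower without overlap. Such shares were not computed for TalaR-M cells.

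ANXA10 (chr4:168092537-168187736), an annexin of gastric epithelium, was at 7.26, 7.26 and 7.27 log2 CPM in parental cells, 6.61, 6.58 and 6.39 in TalaR-M cells and 7.39, 7.25 and 7.40 in TalaR-DF cells. TalaR-M libraries, replicate 2 included, lay below all others. The log2 fold change of TalaR-M cells was -0.74 against parental cells (standard error 0.12, adjusted p = 0.00247) and -0.82 against TalaR-DF cells (adjusted p = 0.00293), short of 2-fold, and -0.77 and -0.85 without replicate 2. With the trend with length and GC content removed, ANXA10 was called in TalaR-M against parental cells, at -1.02 (adjusted p = 0.000432 from limma). TalaR-DF and parental cells differed by 0.08 (standard error 0.12, adjusted p = 0.735), and by -0.11 with that trend removed. ANXA2R lay between 0 and 1.58 log2 CPM, was at 0 in all 3 TalaR-DF libraries and was not called with or without TalaR-M replicate 2. Over the alternatives its log2 fold change ranged from -3.74 to -0.19 in TalaR-DF against parental cells. In TalaR-M against TalaR-DF cells it ranged from 0.14 to 4.13.

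Between TalaR-DF and TalaR-M cells, 5 of the 22 members were called, all of them higher in TalaR-M cells: ANXA3, S100A2, S100A10 and the pair ANXA8 and ANXA8L1, whose direction the filter fixed. Of all genes, 5.29% were called higher and 1.64% lower. Without TalaR-M replicate 2 the count was again 5, with S100A4 in place of S100A10, where 6.96% of all genes were called higher and 1.4% lower. At any size of change, 11 members were then higher and 3 lower, where 23.5% of all genes were higher and 25.3% lower. The median log2 fold change of the 8 S100 genes other than S100A9 was 1.14 with all libraries and 0.49 without replicate 2, against -0.09 and -0.02 for all genes. That of the 10 annexins other than ANXA8 and ANXA8L1 was 0.02 and 0.21.

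**Figure D4:**
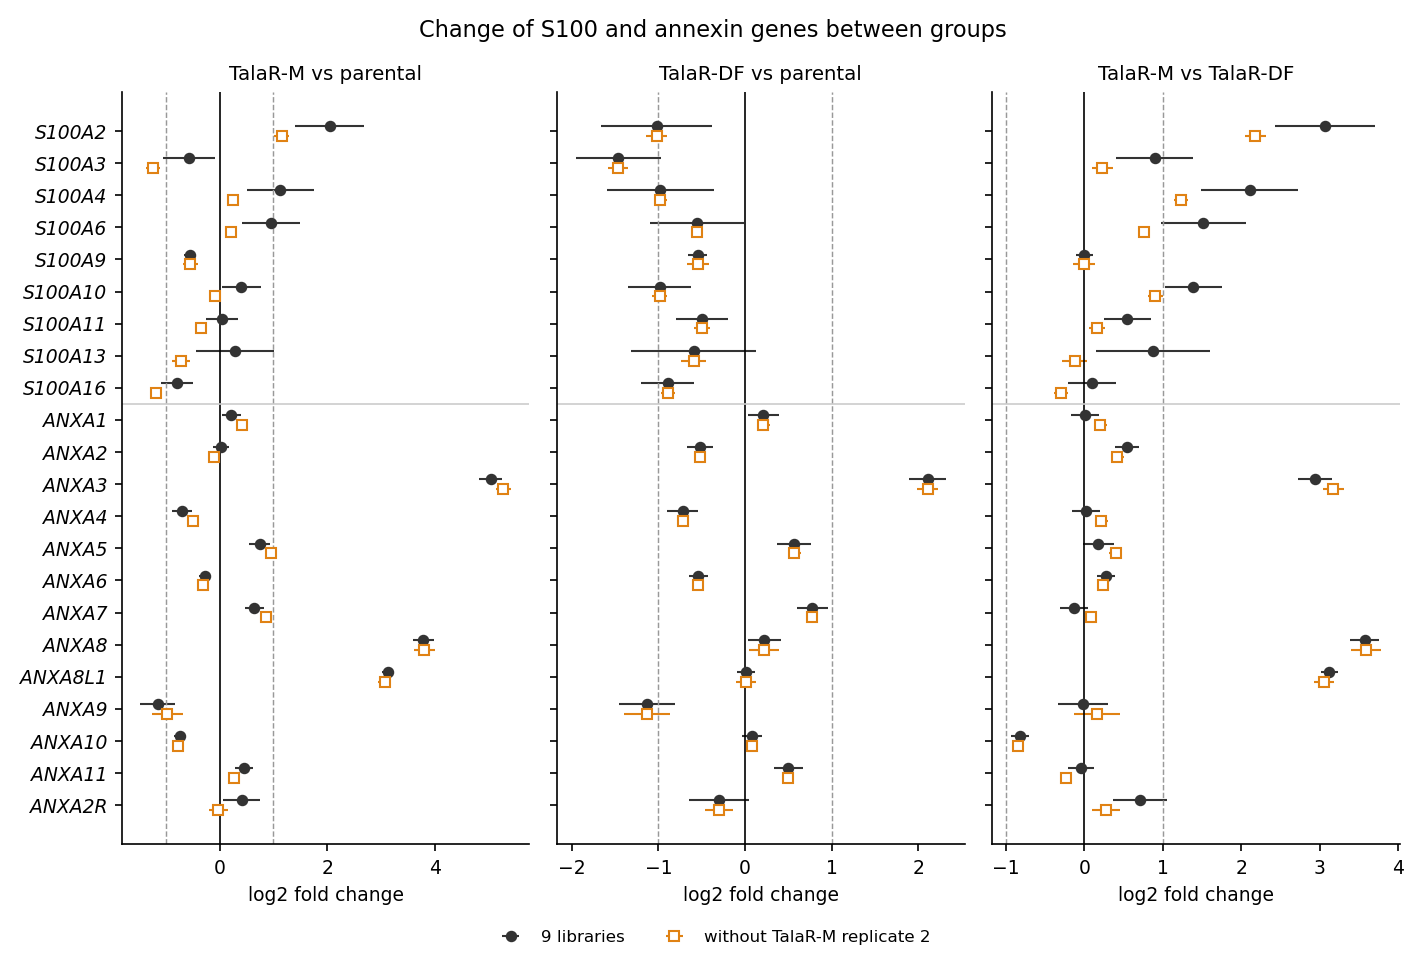
Log2 fold change (horizontal axis) with standard error of each tested member in the 3 comparisons, with all 9 libraries (black circles) and without TalaR-M replicate 2 (orange squares), and dashed lines at a 2-fold change. Most S100 genes shift left in the comparisons that use TalaR-M cells once that library is left out, as S100A13 does from 0.28 to -0.72 against parental cells, while ANXA3, ANXA8 and ANXA8L1 stay above 3 against parental cells.

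The promoters of the members were read for short motifs. Sequence was found among the RefSeq promoters of GRCh38.p14 for 31 members and for 21 of the 22 tested, as the 250 bases before and 50 after the start site; that of ANXA8 was not among them. ANXA3 and ANXA8L1 are shown because they rose in TalaR-M cells, and S100A2 and S100A3 because they fell in TalaR-DF cells without TalaR-M replicate 2. Capitals mark the E-box CAGGTG and the AP-1 element TGANTCA on either strand, and the windows shown end 20 bases after the start site. They are chr4:78551520-78551789 (plus strand), chr10:46375526-46375795 (plus strand), chr1:153565825-153566094 (minus strand) and chr1:153549239-153549508 (minus strand), and for S100A2 the first of the start sites listed was used.
ANXA3: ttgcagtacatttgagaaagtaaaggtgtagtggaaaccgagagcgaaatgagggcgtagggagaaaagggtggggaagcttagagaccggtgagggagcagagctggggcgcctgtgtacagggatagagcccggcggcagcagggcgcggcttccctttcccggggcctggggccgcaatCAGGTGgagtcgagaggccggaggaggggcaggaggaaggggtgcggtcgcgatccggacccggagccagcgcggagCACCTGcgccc
ANXA8L1: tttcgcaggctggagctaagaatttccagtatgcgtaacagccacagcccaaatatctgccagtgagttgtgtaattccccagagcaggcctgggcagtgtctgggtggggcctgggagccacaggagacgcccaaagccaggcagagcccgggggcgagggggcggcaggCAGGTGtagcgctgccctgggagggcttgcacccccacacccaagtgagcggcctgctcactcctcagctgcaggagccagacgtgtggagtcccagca
S100A2: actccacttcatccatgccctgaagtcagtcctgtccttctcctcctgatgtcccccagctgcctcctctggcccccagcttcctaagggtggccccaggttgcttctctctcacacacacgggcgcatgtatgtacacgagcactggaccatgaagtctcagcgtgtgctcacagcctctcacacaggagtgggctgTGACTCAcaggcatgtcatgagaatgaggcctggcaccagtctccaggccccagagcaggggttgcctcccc
S100A3: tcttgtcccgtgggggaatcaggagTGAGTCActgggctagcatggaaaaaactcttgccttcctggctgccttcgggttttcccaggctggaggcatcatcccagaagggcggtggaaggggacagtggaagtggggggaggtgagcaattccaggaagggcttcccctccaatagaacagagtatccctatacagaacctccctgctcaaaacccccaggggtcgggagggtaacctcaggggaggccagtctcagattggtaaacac

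ANXA3 holds an E-box at position -68 and another on the opposite strand at position 10, and ANXA8L1 holds one at -79, counted from the start site. The E-box occurs in 6 of the 21 promoters of tested members (ANXA3, ANXA7, ANXA8L1, S100A4, S100A9 and S100A16) and in 18.0% of the 9563 promoters of tested genes. S100A2 holds TGACTCA at -52 and S100A3 holds TGAGTCA at -225. The AP-1 element occurs in 3 of the 21 promoters, the third being that of ANXA2, and in 4.56% of promoters of tested genes. Without TalaR-M replicate 2, S100A2 and S100A3 were both lower in TalaR-DF than in parental cells but moved in opposite directions in TalaR-M cells. The 300-base window of ANXA3 holds 25 CpG dinucleotides, near the median of 26 over tested genes, and those of S100A2 and S100A3 hold 5 each. On both strands, the TATA box TATAAA occurs in 6 of 21 member promoters (ANXA1, ANXA2, ANXA10, ANXA11, S100A4 and S100A9) and in 5.46% of promoters of tested genes. The CCAAT box occurs in 4 of 21 (36.3% of tested genes), the GC box GGGCGG in 12 of 21 (70.6%) and the TEAD element GGAATG in 1 of 21 (10.9%).

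Of 25 other genes in the table within 250 kb of any single S100 gene of the cluster, 9 were tested. Genes inside the span of the cluster but farther from each S100 gene were not counted. Their median log2 fold change in TalaR-DF against parental cells was -0.00215, where that of the 8 S100 genes other than S100A9 was -0.93. SLC27A3, a fatty acid transporter and acyl-CoA synthetase, was at 1.83, 2.45 and 1.83 log2 CPM in parental cells, 0, 1.45 and 0.78 in TalaR-M cells and 0.54, 0.03 and 0.33 in TalaR-DF cells. It fell by 1.29 in TalaR-M cells (adjusted p = 0.0328 from limma) and fell by 1.74 in TalaR-DF cells (adjusted p = 0.0109). GATAD2B, a subunit of the NuRD repressor complex, fell by 1.16 in TalaR-M cells (adjusted p = 0.0352), and was lower by a log2 fold change of -0.72 without replicate 2. None of the other 7 was called in any comparison. The shares of all genes called lower were 7.72% in TalaR-M and 7.49% in TalaR-DF cells. Of the cornified envelope and S100-fused genes of the same region, 23 were in the table and 0 passed the filter on low values.

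Of 11 receptors and surface partners of S100 proteins and annexins, 7 were tested, and 1 was called higher in TalaR-M cells and 1 higher and 1 lower in TalaR-DF cells, each against parental cells. The shares over all genes were 5.53% called higher in TalaR-M cells and 2.25% higher and 7.49% lower in TalaR-DF cells. AGER, the receptor for advanced glycation end products that several S100 proteins bind, was not called in any comparison and ranged from 1.63 to 3.50 log2 CPM. ALCAM, an adhesion molecule, was at 4.57, 4.51 and 4.54 in parental cells, 6.39, 5.71 and 6.14 in TalaR-M cells and 5.92, 6.09 and 6.20 in TalaR-DF cells. ALCAM rose by 1.54 in TalaR-M and 1.53 in TalaR-DF cells (adjusted p = 0.000567 and 0.000728 from limma). MCAM, an adhesion molecule of melanoma and endothelium, was at 3.99, 3.79 and 3.88 in parental cells, 3.33, 1.64 and 3.17 in TalaR-M cells and 0, 0 and 0.33 in TalaR-DF cells. The groups of MCAM did not overlap, and it fell in TalaR-DF cells (adjusted p = 0.000354) with a mean log2 fold change of -3.77 set by the floor.

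Of 17 intracellular partners, 16 were tested, with 1 called higher and 1 lower in TalaR-M cells and 1 higher in TalaR-DF cells against parental cells. Of all genes, 5.53% were called higher and 7.72% lower in TalaR-M cells and 2.25% higher in TalaR-DF cells, so the list's counts lie near these shares. AHNAK, the giant scaffold that S100A10 and ANXA2 bind, was at 10.23 to 10.29 log2 CPM in parental cells, 8.45 to 10.46 in TalaR-M libraries and 9.36 to 10.10 in TalaR-DF cells, and was not called. MYH10, a non-muscle myosin heavy chain, was at 3.60 to 3.95 in parental cells, 5.58, 4.02 and 5.54 in TalaR-M cells and 5.53 to 5.77 in TalaR-DF cells. It rose in both populations (adjusted p = 0.046 and 0.0107). PLA2G4A, the cytosolic phospholipase A2, was at 6.36, 6.32 and 6.35 in parental cells, 4.79, 2.72 and 4.69 in TalaR-M cells and 5.98, 5.80 and 5.94 in TalaR-DF cells. All TalaR-M libraries lay below the others, and PLA2G4A fell in TalaR-M against parental cells (adjusted p = 0.0112), by 1.60 without replicate 2.

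The S100A10 and ANXA2 complex is known as a cell surface site of plasminogen activation, and genes of that system were read next. PLAT, the tissue activator, was at 6.31, 6.26 and 6.28 log2 CPM in parental cells, 6.71, 5.76 and 6.50 in TalaR-M cells and 4.19, 4.36 and 4.14 in TalaR-DF cells. PLAT fell by 2.05 in TalaR-DF cells (adjusted p = 0.000503 from limma). S100A10 and ANXA2 were also lowest there, at log2 fold changes of -0.99 and -0.52 from parental cells. Neither was called with all libraries and values as deposited, and a link with PLAT was not tested. Of all genes, 7.49% were called lower in TalaR-DF cells and 5.53% higher in TalaR-M cells. PLAU, the urokinase activator, was at 4.48, 4.42 and 4.58 in parental cells, 5.75, 5.94 and 5.75 in TalaR-M cells and 4.47, 4.48 and 4.47 in TalaR-DF cells. It rose by 1.32 in TalaR-M cells (standard error 0.12, adjusted p = 0.000133), with -0.02 in TalaR-DF cells (adjusted p = 0.95). PLAUR, the urokinase receptor, ranged from 5.87 to 6.65 and was not called. SERPINE2, a protease inhibitor, fell by 1.40 in TalaR-DF cells (adjusted p = 0.00363). PLGRKT, a plasminogen receptor, rose by 1.20 in TalaR-M cells (adjusted p = 0.0236), and was not called without replicate 2.

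Of 14 membrane repair genes, 12 were tested, with 1 called higher and 1 lower in TalaR-M cells and 1 lower in TalaR-DF cells against parental cells. The 1 gene each way in TalaR-M cells lies near the shares over all genes of 5.53% higher and 7.72% lower, as does the 1 in TalaR-DF cells beside 7.49% lower. DYSF, or dysferlin, a membrane repair protein, was at 0.45, 0.45 and 0.18 log2 CPM in parental cells, 4.17, 4.01 and 4.34 in TalaR-M cells and 0.39, 0 and 0.73 in TalaR-DF cells. All TalaR-M libraries lay above the other 6, as for ANXA8. DYSF rose by 3.81 in TalaR-M cells (adjusted p = 5.05e-06 from limma) and differed by 0.01 in TalaR-DF cells (adjusted p = 0.993). In TalaR-M against TalaR-DF cells 2 of the 12 genes, DYSF and CAV1, were called, both higher, where 5.29% of all genes were called higher. CAV1, the caveolar coat protein, differed by 1.25 (adjusted p = 0.0137 from limma). SYT7, a calcium sensor of lysosome exocytosis, fell by 2.10 in TalaR-M cells (adjusted p = 0.000146), and was at 3.89 to 4.05 log2 CPM in parental cells and 2.27 to 2.42 in TalaR-DF cells (adjusted p = 0.000763).

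Of 35 other EF-hand calcium sensors, 25 were tested, with 1 called higher and 2 lower in TalaR-M cells and 1 lower in TalaR-DF cells against parental cells. These counts also lie near the shares over all genes (5.53% higher and 7.72% lower in TalaR-M cells, 7.49% lower in TalaR-DF cells). CALB2, or calretinin, was at 1.65, 1.52 and 1.49 log2 CPM in parental cells, 4.28, 5.17 and 4.15 in TalaR-M cells and 2.25, 2.41 and 2.22 in TalaR-DF cells. The groups did not overlap, and CALB2 rose by 2.98 in TalaR-M cells (adjusted p = 8.6e-05 from limma). NCALD, or neurocalcin, was at 3.96 to 4.27 in parental cells, 1.70 to 2.49 in TalaR-M libraries and 2.40 to 2.78 in TalaR-DF cells, and fell in both (adjusted p = 0.000481 and 0.00257). HPCAL1, a neuronal calcium sensor homologue, fell by 1.07 in TalaR-M cells (adjusted p = 0.000567). PLS1, an actin-bundling plastin, was called in TalaR-DF cells without TalaR-M replicate 2 only. The median log2 fold change of this list was -0.09 in TalaR-M cells, -0.02 there without replicate 2 and 0.07 in TalaR-DF cells, where that of the 8 S100 genes other than S100A9 was 0.34, -0.21 and -0.93.

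**Figure D5:**
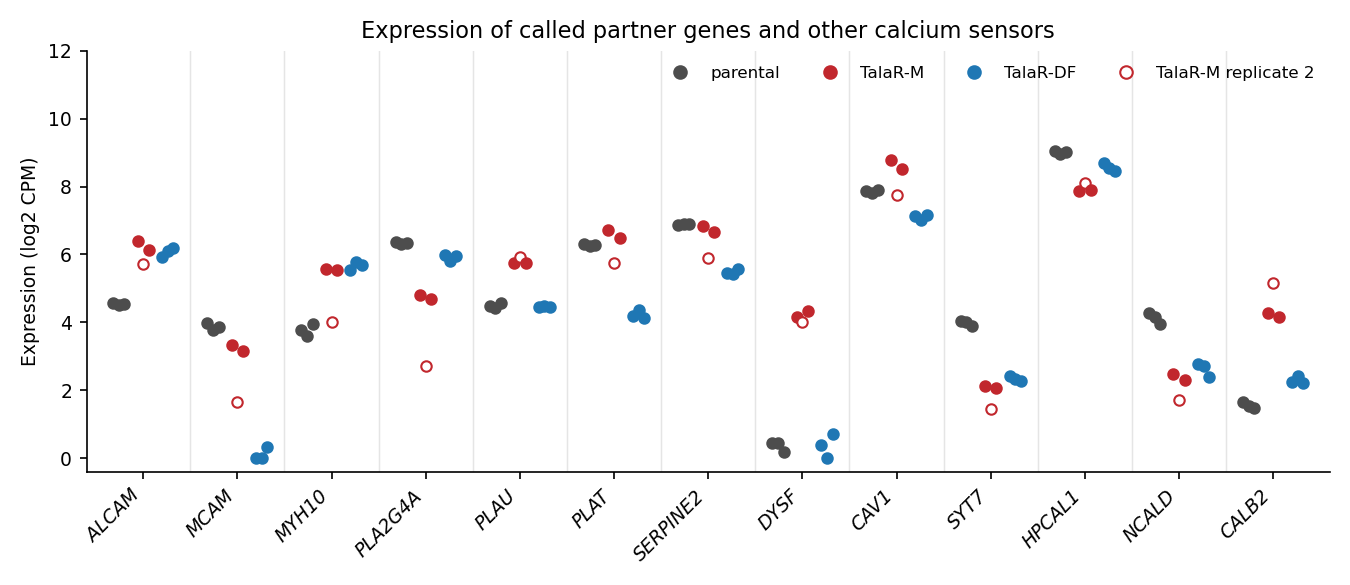
Expression (log2 CPM, vertical axis) in each library of 13 called genes from the lists of partners, the plasminogen system, membrane repair and other EF-hand calcium sensors, with parental cells in grey, TalaR-M cells in red, TalaR-M replicate 2 as an open red circle and TalaR-DF cells in blue. DYSF is between 4.01 and 4.34 in TalaR-M cells and at most 0.73 elsewhere, and MCAM is at most 0.33 in TalaR-DF cells.

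The labelled cell type was checked against markers. Of 8 epithelial markers, 7 were above 0 in every library, with KRT8 the most abundant at 9.11 to 9.23 log2 CPM in parental cells, and CDH1 was at 0 in all 9. KRT8 stood at 9.92, 11.44 and 9.83 in TalaR-M cells and at 9.09 to 9.29 in TalaR-DF libraries. The 8 epithelial markers summed to 1120 to 1179 CPM in parental libraries, 1888, 5855 and 1739 CPM in TalaR-M libraries and 974 to 1112 CPM in TalaR-DF libraries. Of 6 squamous markers, KRT5, KRT6A, KRT14, KRT13 and DSG3 were at 0 in all libraries, as were the S100A7 genes. Of 7 melanocyte or glia markers, 6 were at 0, SOX10 among them. Fibroblast markers were also expressed, 6 of 7 in each library, with COL3A1 the most abundant at 10.3 to 10.4 log2 CPM in parental cells. The fibroblast sum was 1795 to 1868 CPM in parental libraries, 3408, 1225 and 3350 CPM in TalaR-M libraries and 912 to 1028 CPM in TalaR-DF libraries. TalaR-M replicates 1 and 3 thus lay above the parental libraries and replicate 2 below them. COL3A1 did the same, at 11.53, 9.85 and 11.50 log2 CPM in TalaR-M cells. The part of the length-related difference of TalaR-M replicate 2 in the epithelial and fibroblast sums was not tested. The part of epithelial and fibroblast markers in the S100 and annexin values was not tested.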

How the data were processed

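The authors sequenced stranded poly(A) RNA with paired reads of 150 bases, and the submitters' processing notes name hg38. The aligner, counter and annotation are not given in the sources used here. The deposited values are log2 CPM per gene, with values below 0 set to 0, and 100% of values under 50 CPM gave whole reads (within 0.02 of a read). These reads gave the depth and the read numbers beside low genes and entered no test, since reads at or below 1 CPM were not recoverable. No count test was run. At the floor, 1 CPM stood for 6.97 (TalaR-M replicate 2) to 14.5 reads.

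Groups followed the labels. Genes above 1 CPM in at least 3 of 9 libraries (12471) were fitted with limma 3.58.1 in R 4.3.3, with a mean-variance trend and Benjamini-Hochberg adjustment. Fold changes are on the scale of the floored log2 values and understate changes of low genes. Alternatives changed the pseudocount, filter, scaling, weights, samples and replicate block. Transcript lengths came from GENCODE 44. All members were named, list genes only where called (at most 5 a list), with AHNAK, AGER, PLAU, PLAT and PLAUR whatever their values. Members and lists were chosen with earlier results of these data known. Of the plasminogen list, 1 gene and the counts of calls that include it are not reported here. The short-treatment PSN1 libraries and those of other cell lines were not analysed here.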

Additional observations from a re-analysis of the deposited data

How the results depend on the processing

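With all libraries 4 members were called between TalaR-M and parental cells, 2 between TalaR-DF and parental cells and 5 between TalaR-M and TalaR-DF cells. Leaving out 1 library at a time gave 3 to 6, 1 to 4 and 3 to 6, where 10.4% to 16.4%, 7.88% to 11.4% and 4.63% to 8.36% of all genes were called. For TalaR-DF against parental cells the count was 0 with a pseudocount of 8, 1 with a filter at 5 CPM, 4 with those groups alone, with array weights, with the length and GC trend removed or with a 1.5-fold threshold, 5 with the trend removed and TalaR-M replicate 2 left out, and 7 with no fold threshold. For TalaR-M against parental cells it was 8 with the trend removed or a 1.5-fold threshold and 9 with no fold threshold, and for TalaR-M against TalaR-DF cells it was 3 with those groups alone. Of all genes tested in TalaR-DF against parental cells, 9.73% were called with all libraries, 3.42% with a pseudocount of 8, 8.27% with a filter at 5 CPM, 11.4% with those groups alone, 11.3% with array weights, 10.4% with the trend removed, 11.03% with replicate 2 left out as well, 16.4% at 1.5-fold and 18.6% with no fold threshold. In TalaR-M against parental cells the shares were 13.3% with all libraries, 14.8% with the trend removed, 21.1% at 1.5-fold and 23.6% with no fold threshold, and against TalaR-DF cells 6.93%, and 3.88% with those groups alone. Replicate numbers did not pair the libraries (correlations of same-numbered libraries -0.31 to 0.16), and with the replicate block 4, 2 and 4 members were called, where 12.4%, 9.08% and 6.01% of all genes were. Rescaling by the median ratio moved the median of all genes from -0.09 to 0.01 (TalaR-M against parental) and from -0.09 to 0.03 (TalaR-M against TalaR-DF).

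Of 1311 single-gene values under alternatives, 1182 kept direction and side of the threshold and 55 changed sign, none of them of a gene called with all libraries in that comparison. In TalaR-M against parental cells, removing the trend gave -0.079 for ANXA1, -0.30 for ANXA2, -0.17 for ANXA2R, -0.046 for S100A6, -0.31 for S100A10, -0.80 for S100A11 and -0.66 for S100A13. Array weights gave -0.12 for ANXA2, -0.11 for S100A10, -0.36 for S100A11 and -0.77 for S100A13. With the trend removed and TalaR-M replicate 2 left out these 4 were -0.19, -0.16, -0.37 and -0.76, and ANXA2R was -0.063. Leaving out 1 library at a time gave -0.10 to 0.14 for ANXA2, -0.026 to 0.74 for ANXA2R, -0.083 to 0.72 for S100A10, -0.34 to 0.32 for S100A11 and -0.72 to 0.91 for S100A13, with the lowest value in each case without TalaR-M replicate 2.

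In TalaR-DF against parental cells ANXA10 was -0.11 with the trend removed, with and without that replicate, and ANXA8L1 was -0.010 after rescaling. In TalaR-M against TalaR-DF cells rescaling gave 0.023 for ANXA7, 0.14 for ANXA9 and 0.11 for ANXA11, and array weights gave 0.078 for ANXA7, 0.27 for ANXA9, -0.17 for S100A13 and -0.31 for S100A16. Removing the trend gave -0.10 for ANXA1, 0.10 for ANXA11, -0.34 for S100A11, -0.13 for S100A13 and -0.51 for S100A16. With replicate 2 left out as well, ANXA7 was 0.14, ANXA9 0.14, S100A13 -0.22 and S100A16 -0.35. Leaving out 1 library at a time gave -0.15 to 0.20 for ANXA1, -0.11 to 0.22 for ANXA4, -0.24 to 0.080 for ANXA7, -0.36 to 0.22 for ANXA9, -0.23 to 0.076 for ANXA11, -0.12 to 1.5 for S100A13 and -0.30 to 0.35 for S100A16. The causes were not tested. ANXA3 between TalaR-M and TalaR-DF cells had an adjusted p of 0.0771 from limma with a pseudocount of 0.1 (range over the alternatives 1.4e-09 to 0.0771). ANXA9, S100A9 and ANXA2R lie near 1 CPM, where depth limits any difference. The alternatives with the trend removed and replicate 2 left out were chosen after seeing the data.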
